A study of Mus musculus with 6 samples.

Results

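The nuclear-encoded subunits of the mitochondrial respiratory chain and ATP synthase were examined as 1 gene module in testes that had lost the splicing factor SRSF1 in their germ cells. Members were the rows annotated as protein-coding whose symbols belong to the Nduf, Sdh, Uqcr, Cox4 to Cox8 and Atp5 series. This gave 86 of the 54532 gene rows. Complex I had 36 members, complex II 4, complex III 8, complex IV 20 and complex V 18, and the 86 rows carried 85 symbols because Atp5o was listed under 2 gene identifiers. A further 12 rows whose symbols match are annotated as pseudogenes or noncoding RNA and were not members.

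RNA-seq of polyadenylated RNA was performed on whole mouse testes at 5 dpp (days post-partum), with 3 Ctrl and 3 cKO samples. The cKO mice carried floxed and deleted Srsf1 alleles with Vasa-Cre, a recombinase driven by the promoter of the germ-cell gene Vasa (Ddx4), so that somatic cells of the testis keep the intact floxed allele. The labels give the other group only as Ctrl, and the alleles of those mice and the strain of either group are not given in the sources used here. Values are FPKM, fragments per kilobase of gene length scaled by a size factor for each library (median of ratios). The 6 libraries held between 15448191 and 18964743 reads assigned to genes, as recovered from the FPKM.

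The electron transport chain passes electrons from NADH (complex I) and succinate (complex II) through complex III and cytochrome c to oxygen at complex IV, and complex V uses the resulting proton gradient to make ATP. Most subunits are encoded in the nucleus, imported and assembled with a few that are encoded in mitochondrial DNA. Several subunits of complex IV exist as tissue isoforms, and Cox6b2, Cox7b2 and Cox8c are known as testis isoforms. Nuclear respiratory factor 1 (NRF1), the ETS factor GABP and YY1 are known regulators of many of these genes.

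Promoter sequence from RefSeq (GRCm38.p6, the same assembly as mm10) was at hand for 69 of the 86 members, as 74 windows from 250 bases before to 50 after the start of transcription. The NRF1 word GCGCANGCG, on either strand, was in 21 of the 74 windows (28.4%) and in 8.58% of the 21262 windows of all protein-coding genes. The ETS word CCGGAAG was in 21.6% of the members' windows and 11.6% of all windows, and the YY1 word AAGATGGCG in 9.46% and 1.83%. The NRF1 word with a T at its open base can overlap its own reverse complement, and a YY1 word can run into an NRF1 word through the letters GCG, but each word was counted once per window. The sites below, each with 30 bases of the gene's own strand, show the 3 words in members of different complexes, with the matched word or its reverse complement in capitals.
Ndufa11, NRF1 word, chr17:56717692-56717721 (plus strand): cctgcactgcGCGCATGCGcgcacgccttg
Sdha, NRF1 word, chr13:74350319-74350348 (minus strand): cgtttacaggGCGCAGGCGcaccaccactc
Cox6a1, NRF1 word, chr5:115349101-115349130 (minus strand): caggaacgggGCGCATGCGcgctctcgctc
Atp5g2, NRF1 word, chr15:102671070-102671099 (minus strand): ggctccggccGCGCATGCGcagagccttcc
Uqcr11, ETS word, chr10:80406869-80406898 (minus strand): ttctctcctccCCGGAAGtagatgtcaatg
Cox6b1, ETS word, chr7:30626124-30626153 (minus strand): tcctctcgcagCTTCCGGccagtcggaatt
Atp5j, YY1 word, chr16:84835045-84835074 (minus strand): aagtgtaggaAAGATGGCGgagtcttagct

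The windows of the testis isoforms Cox7b2 and Cox6b2 held none of the 3 words, and neither did those of Cox7b, Cox7a1, Cox7a2, Cox8b, Ndufb11 and Atp5g1. This is no trait of the isoforms, because many other members, such as Atp5b, Cox5a, Cox7c and Ndufv1, had none either. No window was at hand for Cox8c. Members with the NRF1 word in a window and tested below (20) had a median log2 fold change of -0.02 and those without (48) one of -0.07. The transcripts of the factors were measured in the same samples. Nrf1 was at 6.33, 6.04 and 6.07 FPKM in the Ctrl samples and 5.67, 5.70 and 6.15 FPKM in the cKO samples. Gabpa, the DNA-binding subunit of GABP, had a log2 fold change of -0.01, and Yy1 was at 16.8, 17.0 and 17.2 FPKM in Ctrl and at 17.9, 20.3 and 20.9 FPKM in cKO without overlap (log2 fold change 0.20, unadjusted p = 0.0497, adjusted p = 0.314, limma).

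The deleted gene was checked first. Srsf1 was at 82.1, 89.1 and 88.4 FPKM in the Ctrl samples and at 45.1, 46.3 and 51.6 FPKM in the cKO samples, a log2 fold change of -0.85 (SE 0.087, adjusted p = 0.0578). The groups did not overlap, and part of the transcript was left in these whole testes. Somatic cells of the cKO carry a deleted allele beside the floxed allele, and their part in this fall was not tested. For all 13 germ-cell markers checked each cKO sample lay below each Ctrl sample, with a summed level of 222 to 510 FPKM in Ctrl and 69.3 to 100.1 FPKM in cKO, and Ctrl 2 held the 510. Fewer germ cells and less RNA per germ cell cannot be told apart in these bulk samples. The Leydig cell markers summed to 433 to 629 FPKM in Ctrl and 663 to 755 FPKM in cKO, the Sertoli cell markers to 1369 to 2290 and 2104 to 2582 FPKM, and the peritubular markers to 521 to 533 and 328 to 511 FPKM. The endothelial markers summed to 40.2 to 51.3 FPKM in Ctrl and 53.7 to 59.9 FPKM in cKO, the macrophage markers to 35.0 to 48.9 and 40.5 to 46.5 FPKM, and the red cell genes to 395 to 628 and 470 to 1299 FPKM. Such sums rest mostly on the abundant genes, and the members of a list differed. Of the 9 Sertoli genes 5 had negative and 4 positive fold changes, with Cldn11 at 49.5% of Ctrl and Amh at 164%. Of the 6 peritubular genes 5 had negative fold changes, while Des was at 133% of Ctrl. The part of these cell types in the values below was not tested.

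The respiratory chain as a whole was expressed at close to the same level in both groups. The summed FPKM of all members was 5955, 6672 and 6653 in the Ctrl samples and 6120, 5651 and 6870 in the cKO samples, so that the cKO mean was 96.7% of the Ctrl mean and the groups overlapped. The members took between 0.936% and 1.09% of the reads assigned to genes in a library. By complex, the cKO mean of the summed FPKM was 96.0% of Ctrl for complex I, 98.2% for complex II, 95.6% for complex III, 96.4% for complex IV and 98.0% for complex V, and the groups overlapped in each.

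The fit compared log2(FPKM + 1) between groups with limma over the 16206 genes that had a mean of at least 0.5 FPKM, and p-values were adjusted over all of them by the Benjamini-Hochberg method. Of the members, 84 entered the fit. The other 2 were the second Atp5o row, which was at 0 in every sample, and Cox8b, the muscle isoform of subunit 8. At an adjusted p of 0.05, 0 members were lower and 0 higher in cKO, where the same rule called 0% of all genes lower and 0% higher. The smallest adjusted p of any gene was 0.0578, that of the deleted Srsf1, so the 0 for the members does not set them apart. Voom, limma's model for the whole reads recovered from the FPKM, also called 0 members in either direction. Srsf1 passed with voom, and the share of all genes called by voom is not given here. The study's own count-based test of these libraries reported genes in both directions. At an unadjusted p under 0.05, 6 members were lower (7.14%, against 9.31% of all genes) and 0 higher (against 6.6% of all genes). The values of the groups did not overlap for 10 members that were lower in cKO (11.9%, against 12.8% of all genes) and 3 that were higher (3.57%, against 10.3% of all genes). The share of lower members by either rule was thus no larger than among all genes.

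**Figure D1:**
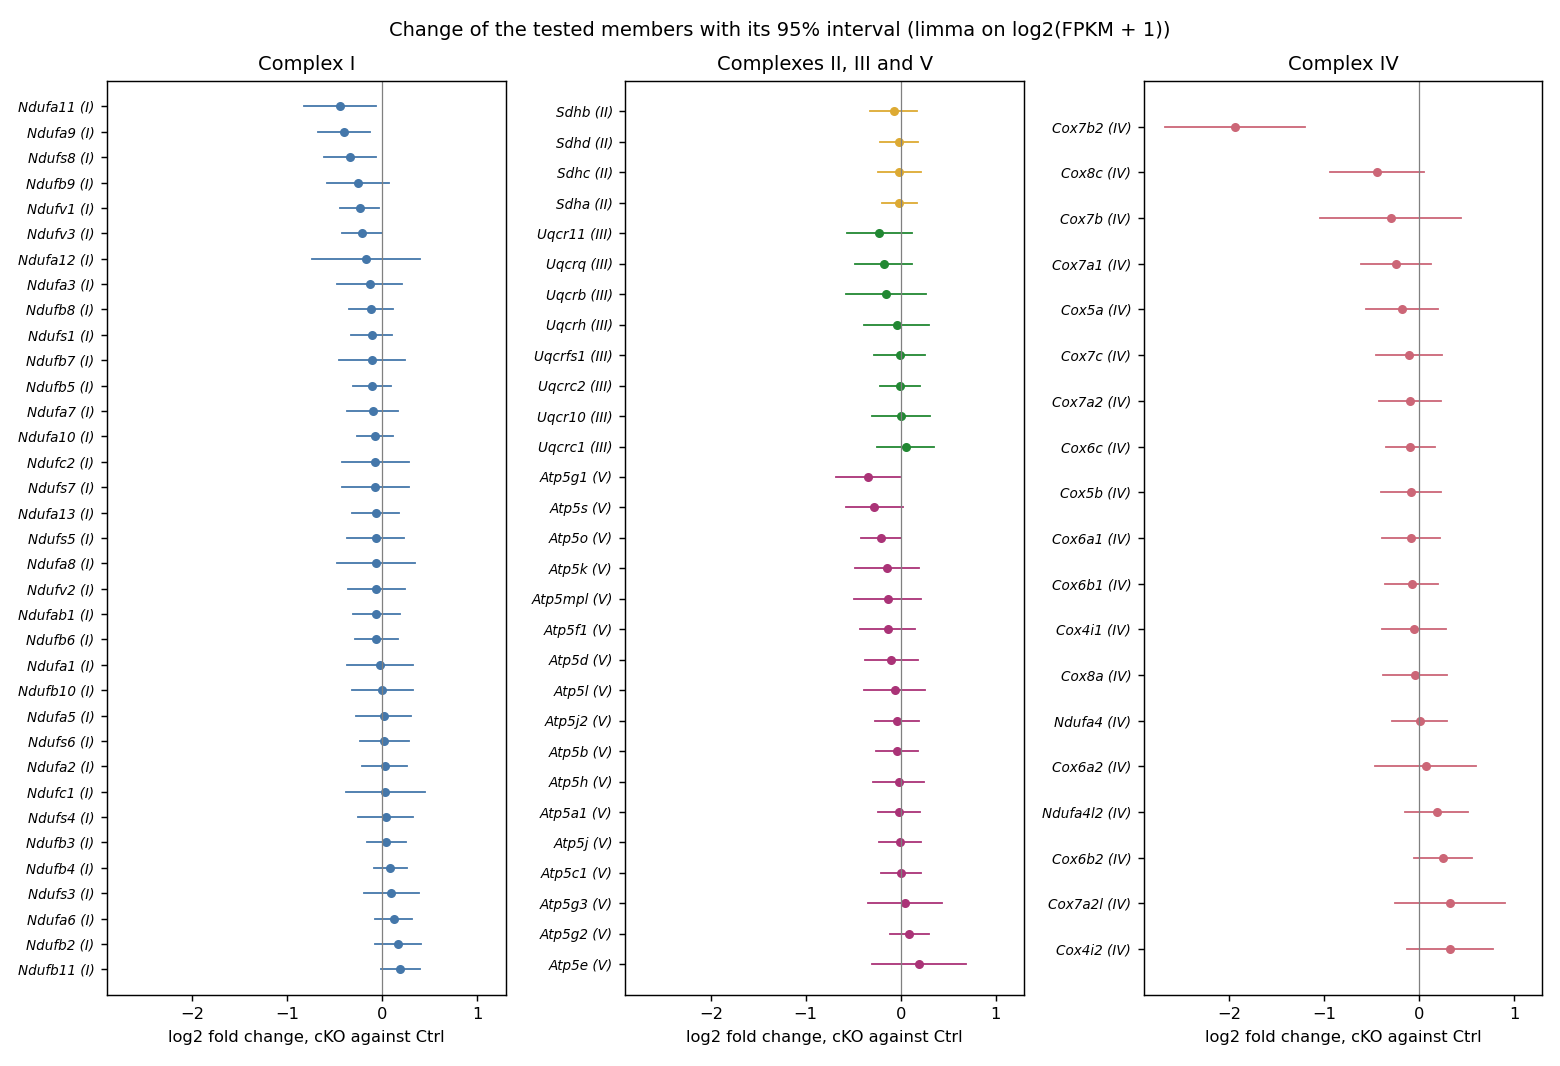
Log2 fold change (cKO against Ctrl, x axis) of 83 of the 84 members in the fit, with points for the estimate, lines for its 95% interval and colours for the complex given in brackets. Estimates lay between -1.94 (Cox7b2) and 0.33 (Cox7a2l and Cox4i2), and 72 of all 84 were smaller than 0.25 in size.

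The fold changes of the members were small and leaned to the negative side. Their median was -0.06, beside 0.003 over all genes tested, with 59 negative and 25 positive. An absolute log2 fold change over 0.5 was seen in 1 member, Cox7b2. The 95% interval lay within 0.5 on either side of 0 for 64 of the 84 members and within 1 for 82, so for most members the data leave room only for changes below these sizes. The median log2 fold change was -0.07 for complex I, -0.02 for complex II, -0.03 for complex III, -0.08 for complex IV and -0.04 for complex V. Without cKO 2 the median of all members was 0.02, and without cKO 3 it was -0.13.

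The members differed more between the samples of a group than between the groups. Relative to each member's mean over the 6 samples, the median member stood at 95.02%, 103% and 104% in the Ctrl samples and at 97.6%, 88.7% and 108% in the cKO samples. The lowest value of the 6 samples was in cKO 2 for 50 of 84 members, where 16.9% of all genes had their lowest value. The highest was in Ctrl 2 for 32 members and in cKO 3 for another 32. Among the cKO samples alone, cKO 2 was the lowest for 78.6% of the members and 33.2% of all genes. The members share their libraries, so these counts describe the samples and are not independent.

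**Figure D2:**
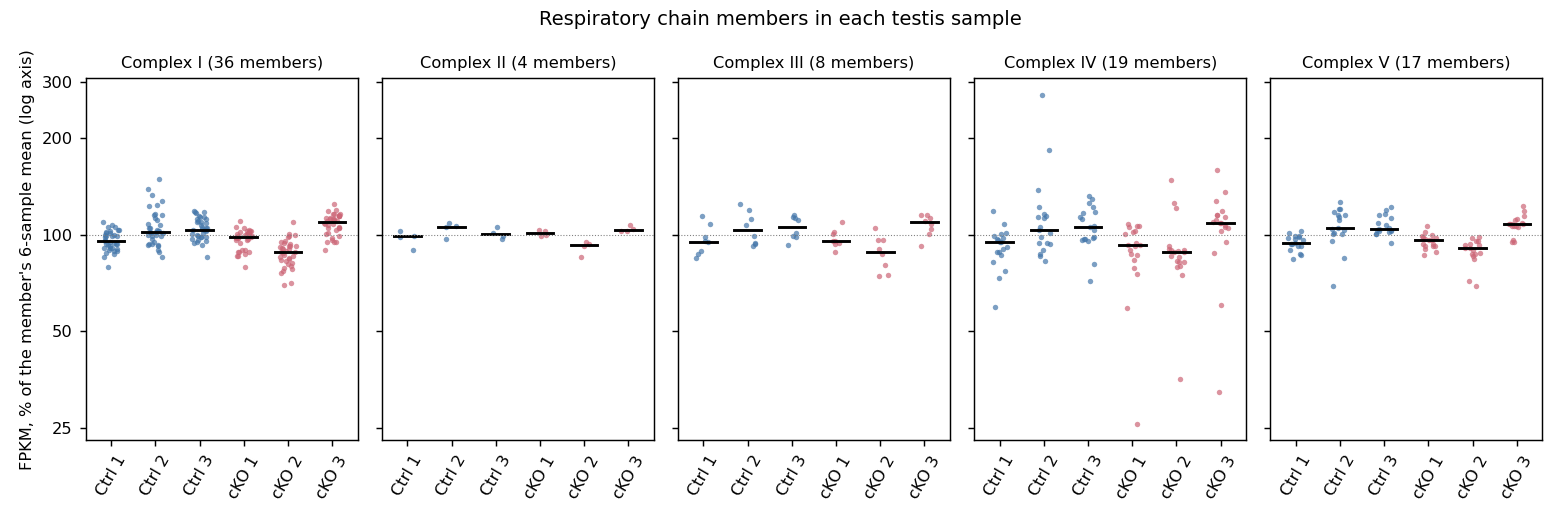
FPKM of each tested member as a percent of its own 6-sample mean (y axis, log scale) in each sample (x axis), by complex, with a point per member and a black bar for the median. The median was lowest in cKO 2 in every complex, and Cox7b2 and Cox7b stand out as the highest points of complex IV in Ctrl 2.

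Complex I oxidises NADH, and its members were spread around their Ctrl levels. Of the 36, 23 had negative and 13 positive fold changes, and 4 were lower at an unadjusted p under 0.05 (11.1%, against 9.31% of all genes). The groups did not overlap for 6 that were lower (16.7%, against 12.8% of all genes) and 3 that were higher (8.33%, against 10.3%). Of the 7 core subunits, which hold the flavin and the iron-sulfur clusters, 3 were lower without overlap (Ndufs1, Ndufs8 and Ndufv1), where 12.8% of all genes were, and the core had a median of -0.07 beside -0.06 for the 29 accessory subunits.

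Ndufs8, the core subunit that carries iron-sulfur clusters next to the membrane arm, was at 105.9, 130 and 107 FPKM in Ctrl and at 91.6, 81.5 and 97.3 FPKM in cKO. All cKO samples were lower than all Ctrl samples (log2 fold change -0.34, SE 0.12, 95% interval -0.61 to -0.07, adjusted p = 0.241). Ndufv1, which binds NADH and the flavin, was at 50.6, 52.4 and 49.9 FPKM in Ctrl and at 41.5, 40.6 and 47.6 FPKM in cKO (log2 fold change -0.24, adjusted p = 0.269). Ndufs1, Ndufv1 and Ndufv3 were named after their values were seen, and had log2 fold changes of -0.11, -0.24 and -0.21. The core subunit Ndufs3 had a log2 fold change of 0.09.

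Ndufa9, an accessory subunit at the junction of the 2 arms, had the smallest adjusted p of complex I. It was at 40.2, 53.5 and 43.9 FPKM in Ctrl and at 34.4, 32.7 and 36.0 FPKM in cKO (log2 fold change -0.40, SE 0.12, 95% interval -0.67 to -0.13, adjusted p = 0.194). Ndufa11, an accessory subunit of the membrane arm whose promoter site is printed above, had the most negative estimate of complex I, with 72.0, 91.3 and 65.1 FPKM in Ctrl and 58.3, 45.8 and 62.4 FPKM in cKO (log2 fold change -0.45, SE 0.16, adjusted p = 0.262). Neither overlapped between groups, and neither passed the test. Reads of Ndufa11 could be shared with a copy over 3.39% of its length.

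On the other side, Ndufb11, an X-linked accessory subunit of the membrane arm, was at 112, 114 and 118 FPKM in Ctrl and at 130, 122 and 139.7 FPKM in cKO (log2 fold change 0.19, SE 0.086, adjusted p = 0.338). Ndufa6, an accessory subunit of the LYR motif family, was at 48.4, 47.8 and 50.3 FPKM in Ctrl and at 51.6, 50.5 and 57.3 FPKM in cKO (log2 fold change 0.12, adjusted p = 0.515). For both genes each cKO sample lay above each Ctrl sample, and the 95% intervals of the difference held 0. The third, Ndufb2, was listed at only 2.03 FPKM on average and had a log2 fold change of 0.16. Ndufa2, the member of complex I with the highest mean, was at 168, 172 and 159 FPKM in Ctrl and at 169, 153 and 186 FPKM in cKO, with the groups overlapping.

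Complex II, succinate dehydrogenase, is the only complex with no mitochondrially encoded subunit, and its median fold change was the closest to 0 of the 5 complexes. Sdha, the catalytic flavoprotein, was at 73.5, 69.9 and 72.8 FPKM in Ctrl and at 73.5, 67.4 and 73.5 FPKM in cKO (log2 fold change -0.01, 95% interval -0.20 to 0.17). Sdhb, the iron-sulfur subunit, was at 48.0, 52.7 and 48.0 FPKM and at 48.5, 41.3 and 52.1 FPKM (log2 fold change -0.07, 95% interval -0.32 to 0.17). The membrane anchors Sdhc and Sdhd had log2 fold changes of -0.01 (95% interval -0.24 to 0.22) and -0.02 (95% interval -0.22 to 0.18). Sdhc was at 28.8, 33.9 and 34.0 FPKM in Ctrl and at 33.3, 29.5 and 32.9 FPKM in cKO. Sdhd was at 107.9, 116 and 106 FPKM in Ctrl and at 108, 104.0 and 114 FPKM in cKO. For all 4 the groups overlapped, and no interval reached below -0.32 or above 0.22.

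Complex III, which hands electrons from ubiquinol to cytochrome c, had 0 of 8 members without overlap and 0 at an unadjusted p under 0.05. Of all genes, 12.8% were lower and 10.3% higher without overlap, and 9.31% lower and 6.6% higher at that p. With 8 members these counts do not set the complex apart. Uqcr10, a small membrane subunit and the member with the highest mean, was at 142, 179.7 and 159 FPKM in Ctrl and at 176, 140 and 168 FPKM in cKO. Uqcr11, another small subunit, had the most negative estimate, with 96.9, 89.1 and 103 FPKM in Ctrl and 85.7, 66.7 and 97.3 FPKM in cKO (log2 fold change -0.22, SE 0.15, adjusted p = 0.486). Uqcrc1, a core-protein subunit, had the most positive, with 34.5, 37.0 and 45.0 FPKM in Ctrl and 37.1, 38.1 and 45.7 FPKM in cKO. The Rieske iron-sulfur protein Uqcrfs1 was at 98.5 ± 9.02 FPKM (SD, n = 3) in Ctrl and 98.0 ± 11.4 FPKM in cKO. The carriers on either side of this step, Cyc1 and Cycs, which lie outside the symbol rule, had log2 fold changes of -0.16 and -0.08.

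Complex IV held the member with the largest difference. Cox7b2 (ENSMUSG00000049387, chr5:71442824-71548205 in mm10, minus strand), the testis isoform of subunit 7B, was at 7.87, 21.2 and 10.2 FPKM in the Ctrl samples and at 1.99, 2.76 and 2.51 FPKM in the cKO samples. These levels rested on 69, 219 and 92 reads in Ctrl and 17, 25 and 21 reads in cKO. All cKO samples were below all Ctrl samples, the cKO mean was 18.5% of the Ctrl mean, and Ctrl 2 was the highest, as it was for the germ-cell markers.

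The log2 fold change of Cox7b2 was -1.94 (SE 0.31, 95% interval -2.68 to -1.20) with an adjusted p of 0.0879, which missed the threshold over all 16206 genes. In the fit restricted to the 13204 protein-coding genes, which called 1.33% of them lower, the adjusted p was 0.0250. Without Ctrl 2 the log2 fold change was -1.55 and the adjusted p 0.0499, in a fit that called 0.0926% of all genes lower. No stretch of 50 bases of the Cox7b2 transcript was found in another gene. Its direction was the same in every alternative and with each sample left out.

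Cox7b, the ubiquitous isoform, was at 62.1, 148 and 65.2 FPKM in Ctrl and at 69.99, 60.2 and 76.1 FPKM in cKO, so that the Ctrl 2 library stood apart in this gene too. The log2 fold change was -0.30 (SE 0.32), and without Ctrl 2 it was 0.10. The share of Cox7b2 in the summed FPKM of both isoforms was 11.2%, 12.5% and 13.6% in the Ctrl samples and 2.77%, 4.39% and 3.19% in the cKO samples. This put Ctrl 2 among the other Ctrl samples, and the groups did not overlap (exact permutation test, two-sided, p = 0.1, the smallest that 3 against 3 samples allow, and 0.214 after adjustment over 15 isoform shares).

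Cox6b2, the testis isoform of subunit 6B, did not follow Cox7b2. It was at 21.3, 24.5 and 24.9 FPKM in Ctrl and at 28.2, 23.9 and 33.1 FPKM in cKO (log2 fold change 0.25, SE 0.13, 95% interval -0.05 to 0.56, adjusted p = 0.399). The groups overlapped in level. Its share of the summed Cox6b1 and Cox6b2 was 10.7%, 10.5% and 12.2% in Ctrl and 13.9%, 12.9% and 14.2% in cKO without overlap (exact permutation p = 0.1, adjusted 0.214). Cox6b1, the ubiquitous partner, was at 178, 209 and 179 FPKM in Ctrl and at 174, 162 and 201 FPKM in cKO.

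Cox8c, the testis isoform of subunit 8, was low in all samples, at 2.56, 3.55 and 3.16 FPKM in Ctrl and 1.53, 3.14 and 1.55 FPKM in cKO, on 11 to 31 reads per library. The cKO 2 sample lay within the Ctrl range and the other cKO samples below it (log2 fold change -0.45, SE 0.21, adjusted p = 0.360). Cox8a, its ubiquitous partner and the member with the highest mean as deposited, was at 322, 278 and 376 FPKM in Ctrl and at 339, 275 and 329.6 FPKM in cKO. Cox8b was at 0.343, 0.438 and 0.502 FPKM in Ctrl and at 0.706, 0.166 and 0 FPKM in cKO, on at most 4 reads per library, and was not tested.

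**Figure D3:**
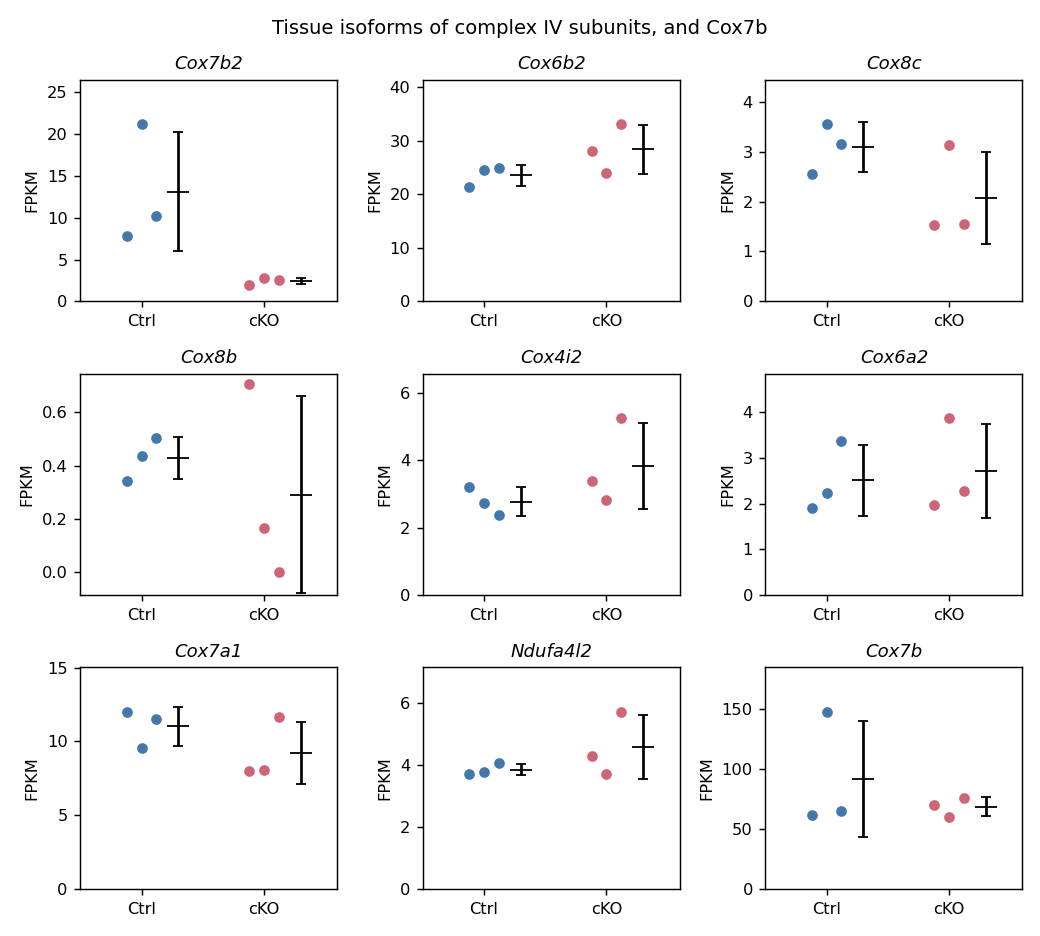
FPKM (y axis) of the 8 tissue isoforms of complex IV subunits and of Cox7b in the 3 Ctrl and 3 cKO samples, with a point per sample and the mean with SD beside them. The groups are apart only for Cox7b2, where the cKO points lie between 1.99 and 2.76 FPKM and the Ctrl points between 7.87 and 21.2 FPKM.

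The muscle and hypoxia isoforms of complex IV were present at low levels. Cox7a1, known from heart and skeletal muscle, was at 12.0, 9.52 and 11.5 FPKM in Ctrl and at 7.96, 8.06 and 11.6 FPKM in cKO (log2 fold change -0.25, adjusted p = 0.481). Cox6a2, also a muscle isoform, was at 1.91, 2.24 and 3.37 FPKM in Ctrl and at 1.96, 3.87 and 2.28 FPKM in cKO. The skeletal and cardiac muscle markers summed to 4.28 to 5.28 FPKM in Ctrl and 3.76 to 4.76 FPKM in cKO, with 2 of 7 above the filter. Cox4i2, a subunit 4 isoform known from lung, was at 3.21, 2.73 and 2.37 FPKM in Ctrl and at 3.39, 2.81 and 5.26 FPKM in cKO, and Ndufa4l2, a hypoxia-induced isoform of Ndufa4, was at 3.72, 3.79 and 4.07 FPKM and at 4.30, 3.72 and 5.73 FPKM. For these genes the groups overlapped.

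The ubiquitous partners were near their Ctrl levels. Cox4i1 was at 177, 212 and 240 FPKM in Ctrl and at 189, 184 and 229 FPKM in cKO. Cox6a1, whose NRF1 site is printed above, was at 293, 311 and 345 FPKM in Ctrl and at 309, 256.2 and 334 FPKM in cKO. Cox7a2 was at 117, 156 and 123 FPKM in Ctrl and at 114, 115 and 139 FPKM in cKO. Ndufa4, once counted to complex I and now to complex IV, was at 91.2, 117 and 102 FPKM in Ctrl and at 109.9, 91.8 and 109 FPKM in cKO. In each of the 4 the ranges of the groups overlapped, and log2 fold changes were between -0.10 and 0.01.

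Complex V, the ATP synthase, had 13 negative and 4 positive fold changes among 17 tested members. The mature c subunit of its ring is the same protein from Atp5g1, Atp5g2 and Atp5g3. Atp5g1 was at 20.7, 24.1 and 23.8 FPKM in Ctrl and at 20.1, 14.2 and 19.7 FPKM in cKO (log2 fold change -0.34, SE 0.14, unadjusted p = 0.0479, adjusted p = 0.311), without overlap. Atp5g2 was at 100.7, 102 and 108 FPKM and at 107, 106 and 119 FPKM, and Atp5g3 at 109.8, 103 and 149 FPKM and at 115, 111 and 145 FPKM. The share of Atp5g1 in the sum of the 3 genes was 8.96%, 10.5% and 8.47% in Ctrl and 8.34%, 6.13% and 6.95% in cKO (exact permutation p = 0.1, adjusted 0.214). Atp5g2 shares 36.7% and Atp5g1 11.1% of their length with copies elsewhere in the genome, so both levels are uncertain.

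The catalytic head of ATP synthase was steady. Atp5a1, the alpha subunit and the member of complex V with the highest mean, was at 231, 238 and 244 FPKM in Ctrl and at 231, 219 and 255.6 FPKM in cKO (log2 fold change -0.02, 95% interval -0.24 to 0.21). Atp5e, the epsilon subunit, had the most positive estimate of the complex, with 83.7, 61.6 and 106.6 FPKM in Ctrl and 95.2, 78.2 and 109.99 FPKM in cKO. Atp5o, the stalk subunit that confers oligomycin sensitivity, and Atp5s, a factor that is no structural subunit, were lower without overlap with log2 fold changes of -0.20 and -0.28 (adjusted p = 0.329 and 0.343), and were named after their values were seen.

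Levels within the module spanned a wide range. Of the 84 tested members, 68 had a mean of at least 20 FPKM, and the median was 59.9 FPKM where it was 5.93 FPKM over all genes tested. The deposited FPKM divides by the summed length of all exons of a gene, which was at least 2 times that of its principal transcript for 25 members. For Atp5l, the g subunit of ATP synthase, that length was 11.8 times the principal transcript, so that 14.2 FPKM as deposited corresponds to 169 FPKM per length of that transcript. On the latter scale Atp5b, the catalytic beta subunit, was the highest member at 466 FPKM, and Cox8c the lowest tested at 2.58 FPKM. Copies elsewhere in the genome covered at least 10% of the length of 11 tested members, among them Uqcrb (25.4%), Cox7c (22.1%) and Ndufs5 (21.7%).

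The assembly factors and the mitochondrially encoded subunits leaned to lower values in cKO, and the other pathway lists less clearly. How these lists move with a sample left out was not examined. Of 52 assembly factors, 50 were tested and 0 passed the adjusted threshold, with a median log2 fold change of -0.09. The groups did not overlap for 12 that were lower (24% of 50, against 12.8% of all genes) and 2 that were higher (4%, against 10.3%). At an unadjusted p under 0.05, 8 were lower and 1 higher (16% and 2%, against 9.31% and 6.6% of all genes). Cox10, which makes the heme A of complex IV, had the smallest adjusted p (log2 fold change -0.33, adjusted p = 0.172), and Surf1, another complex IV assembly factor, was higher (0.26, adjusted p = 0.224). The 8 outer membrane and matrix genes had 5 negative and 3 positive fold changes and a median of -0.05. Of these 8 genes 1 was lower without overlap, where 12.8% of all genes were. It was the citrate synthase gene Cs, with 27.4, 28.0 and 26.7 FPKM in Ctrl and 19.5, 19.96 and 24.003 FPKM in cKO (log2 fold change -0.36, adjusted p = 0.169). The 12 regulators of these genes had 11 tested, with 8 negative and 3 positive fold changes and a median of -0.06. The cKO mean of their summed FPKM was 100.2% of Ctrl. The 13 mitochondrially encoded subunits summed to 21718 to 26367 FPKM in Ctrl and 18762 to 21148 FPKM in cKO without overlap. The largest of them, mt-Co1, overlapped between groups, with means of 8096 FPKM in Ctrl and 7275 FPKM in cKO. Some rested on few reads per library, with 3 to 13 for mt-Atp8 and 21 to 62 for mt-Nd3. Of the 13, 11 had negative fold changes, and 4 were lower without overlap (30.8%, against 12.8% of all genes). At an unadjusted p under 0.05, 2 were lower (15.4%, against 9.31% of all genes), and 0 passed the adjusted threshold.

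**Figure D4:**
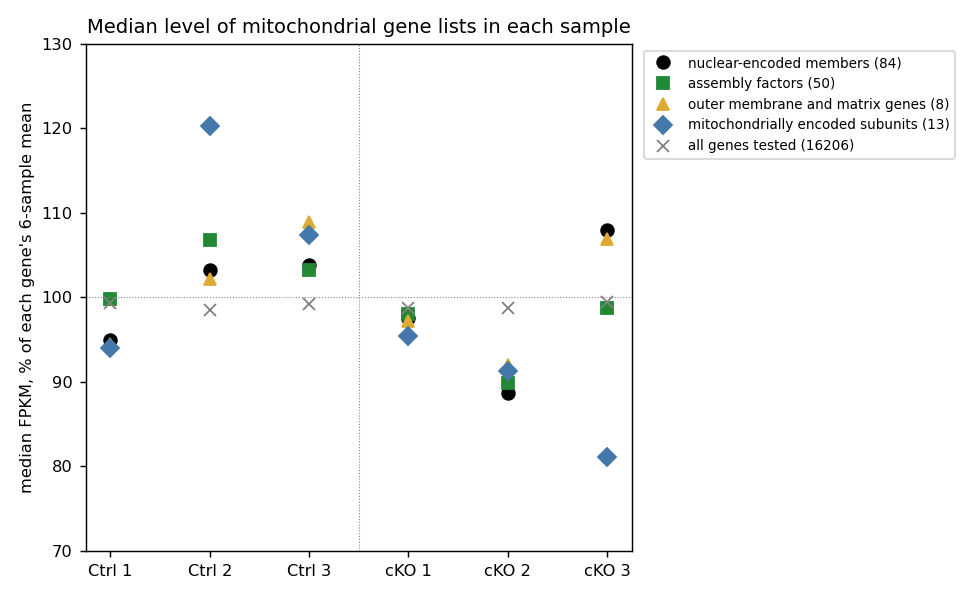
Median FPKM of 5 gene lists in each sample (x axis), with each gene as a percent of its own 6-sample mean (y axis, from 70 to 130) and the number of genes in brackets. The nuclear-encoded members (black) stood between 88.7% in cKO 2 and 108% in cKO 3, while all genes tested stayed between 98.5% and 99.4%.

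Outside the module, 3 of the 4 tested germ-cell isoforms of other energy genes had negative fold changes, as Cox7b2 had. Cyct, the testis cytochrome c, was at 10.5, 17.4 and 13.2 FPKM in Ctrl and at 1.46, 4.20 and 2.67 FPKM in cKO (log2 fold change -1.998, adjusted p = 0.0760). Its share of Cycs and Cyct was 15.04% ± 3.04 (SD, n = 3) in Ctrl and 3.73% ± 2.06 in cKO. Slc25a31, the ADP/ATP carrier of male germ cells, had a log2 fold change of -1.89 (adjusted p = 0.107), and Pdha2, the testis isoform of a pyruvate dehydrogenase subunit, one of -1.03 (adjusted p = 0.144). In both, each cKO sample lay below each Ctrl sample, whereas the sperm glycolytic gene Gapdhs had a log2 fold change of 0.44. Ldhc and Pgk2, which appear in later germ cells, were under the filter.

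Cox7b2 was also set against the germ-cell markers of the same sample, a ratio chosen after the values were seen. Per 100 FPKM of summed germ-cell markers there were 3.54, 4.16 and 4.15 FPKM of Cox7b2 in Ctrl and 2.88, 2.76 and 3.32 FPKM in cKO. The ranges did not overlap, with means of 3.95 ± 0.35 (SD, n = 3) and 2.98 ± 0.29, where the level itself was 13.1 ± 7.13 FPKM in Ctrl and 2.42 ± 0.39 FPKM in cKO.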

How the data were processed

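Polyadenylated RNA of 5 dpp testes was sequenced by the authors as 150 bp paired-end reads, aligned to mm10 with HISAT2 2.0.5 (per the labels) and counted per gene with featureCounts. The deposited table holds FPKM, which the authors computed from counts and gene length. The handling of strand and of reads with several matches is not given in the sources used here. Each FPKM times its gene length gave whole reads within 0.01, and the scaling between libraries equalled median-of-ratios size factors. Sequencing depth per library rested on these reads, and 3 reads of a 1 kb gene correspond to 0.158 to 0.194 FPKM.

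Values were analysed as log2(FPKM + 1) over genes averaging 0.5 FPKM or more with limma 3.58.1 (R 4.3.3; empirical Bayes with a mean-variance trend, two-sided, Benjamini-Hochberg adjustment, 3 samples a group). Fold changes are on that scale, which understates low genes. The scripts were tested on simulated data. Isoform shares were compared with exact permutation tests over samples. Shared sequence was searched as 50-base stretches in GENCODE M21, where 80 of 86 members had the same coordinates. The most abundant, lowest and highest member of each complex were named. So were up to 5 lowest and 5 highest members without overlap and with a mean of at least 5 FPKM. All Sdh genes and all tissue isoforms with their partners were named too. Others are marked, belong to the pathway lists or were chosen after their values were seen, among them Ndufs3, Ndufb2 and Uqcrfs1. The value of 1 member is not reported here. The members and lists were chosen with earlier results of these data known. The study describes the samples as biological replicates.

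The main fit did not pair the samples by replicate number. The correlations of their deviations do not settle whether the numbers mark pairs. Alternatives, with 16 fits in all, changed the pseudocount, the filter, the scaling, the trend and the genes entered, used a replicate block or voom, or left out each sample.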

Additional observations from a re-analysis of the deposited data

How the results depend on the processing

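The median of all genes moved by at most 0.02 under any scaling. The count of members lower at the adjusted threshold was 1 in place of 0 (Cox7b2 each time) with protein-coding genes only and with the replicate number as a block, and 0 to 1 when a sample was left out (1 without Ctrl 2). The count of lower members at an unadjusted p under 0.05 was 6, and 2 to 10 with a sample left out (2 without Ctrl 2, 3 without cKO 2, 10 without cKO 3). The count of higher members was 0, and 1 with TPM, with quantile normalization and with the replicate block, and 0 to 3 with a sample left out (3 without cKO 2). Beyond the main fit, the share of all genes is not given for counts at an unadjusted p or for the replicate block. These counts describe how the fits differ and are not results about the members. The adjusted p of Cox7b2 ran from 0.0250 to 0.289 over the alternatives. Srsf1 passed the threshold with TPM (-0.86, adjusted p = 0.0362), the replicate block (-0.85, 0.0326), protein-coding genes only (-0.85, 0.0160) and voom (-0.86, 0.0255). The causes were not tested.

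Under quantile normalization the log2 fold changes of Ndufa2 (-0.0047), Uqcr10 (-0.020) and Ndufa4 (-0.013) changed sign, as did that of Uqcr10 with library-size scaling (-0.0020). With a sample left out, the median of all members ran from -0.13 to 0.016, and estimates on both sides of 0 were found for Ndufa2 (-0.045 to 0.093), Ndufa4 (-0.078 to 0.098), Sdha (-0.035 to 0.029), Sdhb (-0.14 to 0.020), Sdhc (-0.089 to 0.040), Sdhd (-0.052 to 0.022), Uqcr10 (-0.079 to 0.10), Uqcrc1 (-0.037 to 0.16), Cox4i1 (-0.17 to 0.047), Cox6a1 (-0.17 to 0.026), Cox6a2 (-0.15 to 0.24), Cox7a2 (-0.19 to 0.027), Cox7b (-0.52 to 0.10), Cox8a (-0.15 to 0.067), Atp5a1 (-0.078 to 0.033), Atp5e (-0.014 to 0.38) and Atp5g3 (-0.076 to 0.20). Of 512 values of named genes under the alternatives, 471 kept direction and side of the threshold.

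Deviations of same-numbered samples correlated only weakly, at 0.066, 0.016 and 0.088, but 5 of 6 samples correlated best with their own number. Whether the replicate numbers mark pairs cannot be told from these values. With the replicate block, Cox7b2 had an adjusted p of 0.0462. As shares of whole reads, Cox7b2 differed between groups by -4.40 percentage points in place of -8.997. Depth limits Cox4i2, Cox6a2, Cox7a1, Cox7b2, Cox8b, Cox8c and Ndufa4l2, which had under 100 reads in at least 4 of 6 libraries. The filter, pseudocount and length scale bear on these low genes more than on the rest.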
